A study of Mus musculus with 18 samples.

Results

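Gene expression was compared between Pole4-/- Trp53+/+ and Pole4+/+ Trp53+/+ primary mouse embryonic fibroblasts (MEFs), that is, with and without POLE4 in cells whose Trp53 gene is intact. The members are the 6 libraries that the labels assign to these genotypes, 3 of each, of 18 RNA-seq libraries in all. The whole series crosses Pole4+/+ or Pole4-/- with Trp53+/+, Trp53+/- or Trp53-/-, which gives 6 genotypes with 3 libraries each, and it addresses how POLE4 and the tumor suppressor TRP53 act on DNA replication. The cells were taken at passage 1 from mid-gestation embryos of crosses between Pole4+/- Trp53+/- mice on a C57BL/6 background, after the head, heart and liver had been removed, and were cultured at 5% oxygen. The labels give no drug, transgene or Cre recombinase for any group, and the Pole4 and Trp53 alleles are carried in the germ line, so that every cell of an embryo holds them. The labels do not say whether the 3 libraries of a genotype came from separate embryos, so p-values measure only the spread between these libraries.

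The 6 libraries held between 11316143 and 32155250 counts. They differed in more than genotype. The 3 Pole4+/+ Trp53+/+ libraries expressed Xist and no Y-linked gene above the level of a few counts, whereas 2 of the 3 Pole4-/- Trp53+/+ libraries, replicates 2 and 3, were from male cells. Ribosomal RNA took 7.11%, 24.1% and 42.5% of the counts in the Pole4-/- Trp53+/+ libraries and 11.2%, 9.3% and 5.81% in the Pole4+/+ Trp53+/+ libraries. Fibroblast markers were high in all 6 libraries. Their sum over 12 genes was 25410 to 31450 CPM (counts scaled to a common library size) in Pole4-/- and 16940 to 22500 CPM in Pole4+/+ cells. These sums did not overlap, at a median log2 fold change of 0.24 with 1 of 12 genes called. Macrophage markers summed to 12.5 to 32.1 CPM against 6.35 to 69.7 CPM. Epithelial markers summed to 10.6 to 17.0 CPM against 21.7 to 34.7 CPM, without overlap, at a median log2 fold change of -1.02. Of their 3 tested genes, 0 were called by edgeR and 0 were at an unadjusted p under 0.05. Endothelial markers summed to 11.02 to 12.5 CPM against 8.16 to 10.1 CPM, also without overlap. Of their 6 tested genes, 0 were called by edgeR, 0 were at an unadjusted p under 0.05 and 1 was called higher by voom. Of 12 erythroid markers, 8 were at 0 in all 6 libraries. Macrophage markers had a median log2 fold change of -1.53 with 0 of 13 called (1 lower at an unadjusted p under 0.05) and overlapping sums; the median was -2.48 with the male libraries left out and 0.30 under voom, so its direction depended on the fit. Fn1 and Lpl were the called genes of the cell type marker lists. Outside these 6 libraries, Pole4+/+ Trp53-/- replicate 1 stood apart from the other 2 libraries of its genotype: its mean over 42 mitotic genes was 0.09 on the log2 scale relative to Pole4+/+ Trp53+/+, against 0.69 and 0.86. That library enters the shared estimate of the spread. Most counts of calls in gene lists are higher without it, and many of these are given below.

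DNA polymerase epsilon (Pol epsilon) is the main leading strand polymerase and also part of the assembly of the CMG helicase (CDC45, MCM2-7 and GINS) at replication origins. Its catalytic subunit, encoded by Pole, binds POLE2 and a pair of small histone-fold proteins, POLE3 and POLE4, which hold each other, keep the complex stable and hand histones H3 and H4 to newly made DNA. TRP53 is a transcription factor activated by DNA damage and replication stress, and its target CDKN1A (P21) inhibits cyclin-dependent kinases; many replication and mitosis genes are repressed when cyclin-dependent kinases are inhibited, through E2F and DREAM complexes bound at their promoters.

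The targeted gene was lower in every Pole4-/- library but was not absent. Pole4 (chr6:82618992-82705365, GRCm38) measured 11.2, 9.26 and 10.6 CPM in the 3 Pole4-/- Trp53+/+ libraries and 22.9, 20.8 and 16.3 CPM in the 3 Pole4+/+ Trp53+/+ libraries. The ranges did not overlap, and Pole4 fell by 0.95 on the log2 scale (SE 0.195, n = 3 and 3, adjusted p = 0.0220, edgeR quasi-likelihood test), which leaves transcript at 0.518 of the level in Pole4+/+ cells. The log2 fold change of Pole4 was -0.97 in Trp53+/- cells (adjusted p = 0.26) and -0.94 in Trp53-/- cells (adjusted p = 0.30). The Pole4 effect on its own transcript therefore had nearly the same size in all 3 Trp53 backgrounds, although it passed the test in Trp53+/+ cells only; its difference between Trp53+/+ and Trp53-/- cells was -0.02 (SE 0.271). Which stretch of the gene the mutant allele lacks is not given in the sources used here. Of 84 tested genes within 5 Mb of Pole4, 2 were called lower (2.38%, near the 2.7% of all tested genes), Alms1 (-0.52) and Mrpl19 (-0.65), and the median log2 fold change of the 84 was 0.022.

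Transcripts of the large subunits of Pol epsilon fell with POLE4, and that of its histone-fold partner did not. Pole, the catalytic subunit (chr5:110286306-110337474), measured 19.2, 17.4 and 20.4 CPM in Pole4-/- Trp53+/+ cells and 39.6, 39.9 and 29.2 CPM in Pole4+/+ Trp53+/+ cells. Its fall was 0.94 on the log2 scale (SE 0.2, adjusted p = 0.0244). Pole2, the B subunit (chr12:69201773-69228195), measured 3.22, 2.84 and 3.75 CPM against 6.44, 7.29 and 5.58 CPM, and fell by 0.99 on the log2 scale (SE 0.246, adjusted p = 0.0379). All 3 Pole4-/- libraries were below all 3 Pole4+/+ libraries for both genes. Of the 6 fits that omit 1 library, Pole and Pole2 passed the test in 1 each, the one without Pole4+/+ replicate 3, and Pole4 in 2, that one and the one without Pole4-/- replicate 1. The log2 fold changes in these fits stayed between -1.07 and -0.87 for Pole, -1.08 and -0.90 for Pole2 and -1.08 and -0.84 for Pole4. With Xist as a covariate they were -0.94, -1.01 and -0.95, and none passed (adjusted p = 0.124, 0.136 and 0.118). Pole3 (chr4:62522649-62525068) measured 23.2, 22.8 and 25.03 CPM against 26.9, 28.6 and 22.9 CPM. Its ranges overlapped (log2 fold change -0.14, SE 0.157, adjusted p = 0.58). Chrac1, another histone-fold partner of POLE3, had a log2 fold change of -0.47 (adjusted p = 0.13), and 0 of the 15 genes of the POLE3, ATAC and CHRAC complexes were called by edgeR (7 were lower at an unadjusted p under 0.05). Voom with quality weights called 9 of the 15 lower, and edgeR without Pole4+/+ Trp53-/- replicate 1 called 6. In Trp53+/- cells Pole was at 33.2 ± 4.00 CPM (SD, n = 3) without POLE4 and 41.1 ± 2.88 CPM with it, and in Trp53-/- cells at 64.5 ± 7.39 and 56.5 ± 19.6 CPM; neither difference passed the test.

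**Figure D1:**
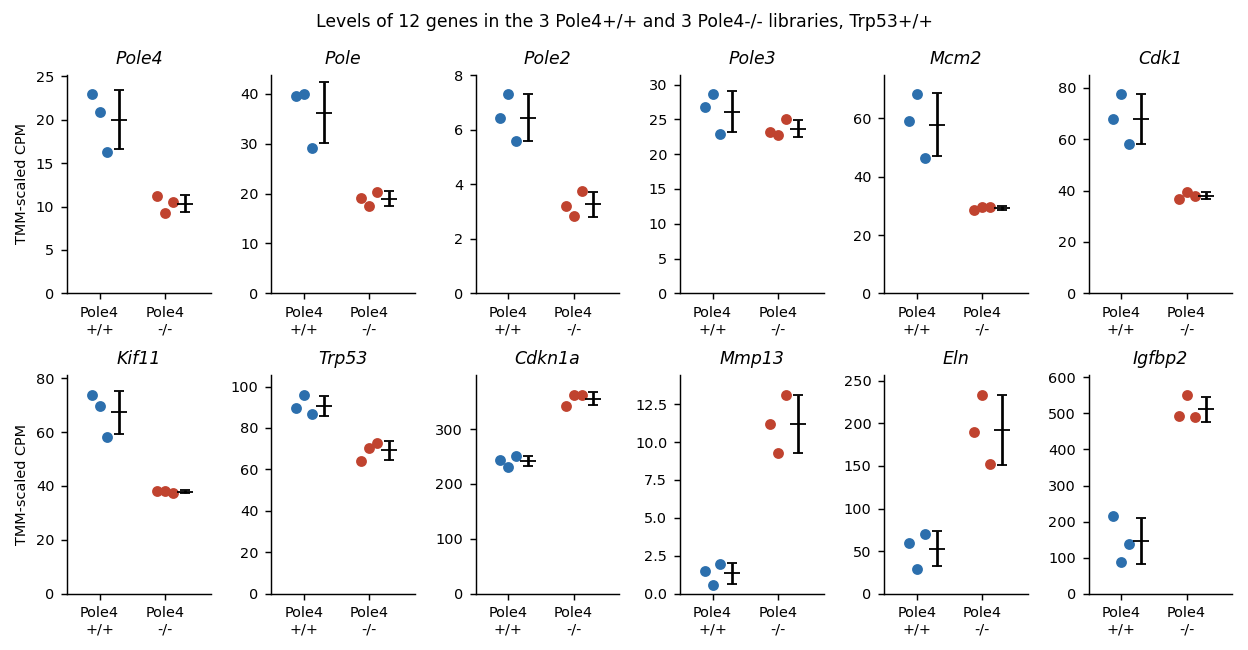
CPM (TMM-scaled, linear axis from 0, own scale for each gene) of 12 genes in each library of Pole4+/+ Trp53+/+ (blue) and Pole4-/- Trp53+/+ (red) cells; points are single libraries, and the dash and bar beside them are the mean and SD of 3. Pole4 lay between 9.26 and 11.2 CPM in the Pole4-/- libraries and between 16.3 and 22.9 CPM in the Pole4+/+ libraries.

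The promoters of these subunits are shown because E2F-bound sites are the usual entry point of cell cycle control for replication genes. Each stretch runs 5′ to 3′ along the strand of the gene from 150 bases before the annotated start to 30 bases after it (RefSeq, GRCm38.p6). For Pole4 this start lies inside the gene span given above, which is from GENCODE and reaches further upstream. Capitals mark an E2F-type match, defined as TTTGGCGC, TTTCGCGC, TTTCCCGC or TTTGCCGC on either strand.
Pole4 (chr6:82652845-82653024, minus strand): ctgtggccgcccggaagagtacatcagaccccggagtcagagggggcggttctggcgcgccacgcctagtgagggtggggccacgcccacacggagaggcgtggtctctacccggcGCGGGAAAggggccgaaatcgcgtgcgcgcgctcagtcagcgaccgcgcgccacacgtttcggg
Pole2 (chr12:69228161-69228340, minus strand): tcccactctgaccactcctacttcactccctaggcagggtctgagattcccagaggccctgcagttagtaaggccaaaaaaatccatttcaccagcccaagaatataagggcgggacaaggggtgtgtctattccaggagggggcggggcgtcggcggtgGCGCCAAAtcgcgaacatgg
Pole3 (chr4:62524985-62525164, minus strand): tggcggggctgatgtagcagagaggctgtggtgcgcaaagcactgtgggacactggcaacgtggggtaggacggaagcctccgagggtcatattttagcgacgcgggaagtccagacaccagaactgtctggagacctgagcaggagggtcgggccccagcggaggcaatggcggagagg
Pole4 has 1 E2F-type match whose first base lies 34 bases before the start, and Pole2 has 1 match that begins 10 bases after it. The Pole3 stretch has none. In the full window of 250 bases before to 50 bases after the start, 4.14% of the 10689 tested genes with a promoter in the table held such a match. A match is a description of letters and not evidence of binding.

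Over all genes, 626 of 15710 tested were called at an adjusted p under 0.05, Pole, Pole2 and Pole4 among them. Of the 626, 424 were lower in Pole4-/- Trp53+/+ cells (2.7% of the genes tested) and 202 were higher (1.29%). Counts of called members in the lists below are to be read against these shares. The changes of the genes called lower were of moderate size, with a median log2 fold change of -0.70 and 67 of 424 at or beyond 1 in size. The genes called higher moved further, with a median of 0.99 and 99 of 202 at or beyond 1. The median over all tested genes was 0.012. All 3 Pole4-/- libraries lay below all 3 Pole4+/+ libraries for 21.7% of the tested genes and above them for 19.4%, and 4101 genes had an unadjusted p under 0.05. For a single gene, the smallest two-sided p of an exact permutation test is 0.1 at this sample size.

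How many genes passed depended strongly on the fit. Scaling by library totals alone, without correction for composition, called 57 genes higher and 2187 lower and moved the median of all genes to -0.28. With Xist as a covariate for sex, 6 genes were called higher and 5 lower, and with the male libraries left out, 1 Pole4-/- library against 3, the count was 0 in both directions (2040 at an unadjusted p under 0.05); in both fits 0 members of the gene lists described below were called. All 626 called genes had group ranges that did not overlap, so a fit that leaves out some of the 6 libraries could not be expected to turn their direction, and a kept direction there is no sign of stability. Leaving out 1 of the 6 libraries left 3 to 199 genes higher and 5 to 600 lower. Without Pole4+/+ Trp53-/- replicate 1, a library of neither genotype compared, 1256 genes were called higher and 1966 lower, and these included all 626. In the lists described below the lowest count of calls in a fit that omits 1 of the 6 libraries was 0, except for mitotic genes (1). The share of sex, of ribosomal RNA content and of genotype in these differences cannot be told apart with 1 female Pole4-/- library.

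**Figure D2:**
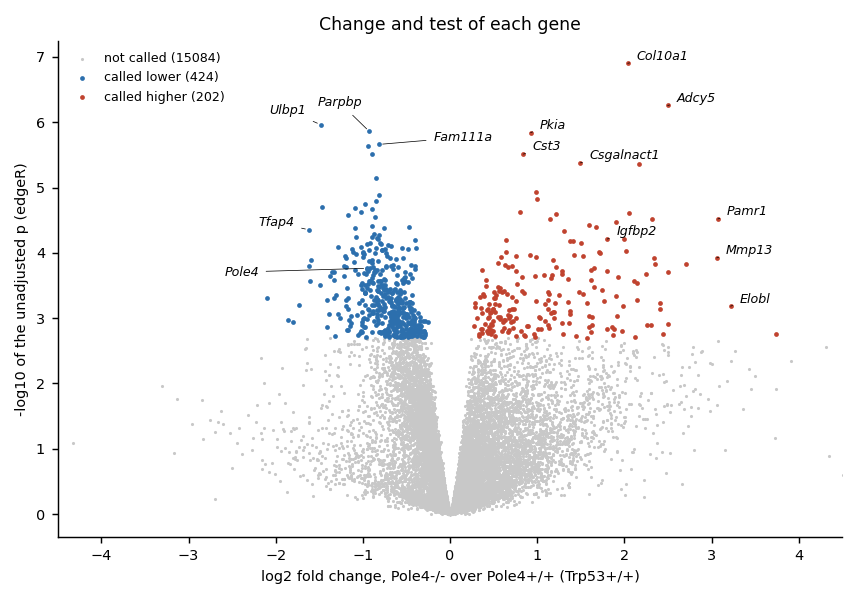
Log2 fold change of each of the 15710 tested genes in Pole4-/- over Pole4+/+ cells with Trp53 intact (horizontal axis) against -log10 of the unadjusted edgeR p (vertical axis), with genes called lower in blue (424) and higher in red (202). The axis ends at 4.5 in size, beyond which 35 genes are not drawn; the genes called higher reach further from 0 than those called lower.

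The genes with the lowest p were a small and mixed group. Col10a1, the collagen of hypertrophic cartilage, measured 15.5, 33.8 and 22.4 CPM in Pole4-/- Trp53+/+ cells against 5.62, 5.89 and 5.87 CPM, a rise of 2.04 on the log2 scale (SE 0.226, adjusted p = 0.00197). Adcy5, an adenylyl cyclase, measured 3.82, 6.34 and 6.83 CPM against 1.21, 0.776 and 0.949 CPM and rose by 2.5 (SE 0.309, adjusted p = 0.00435). Pkia, an inhibitor of protein kinase A, measured 33.4, 38.1 and 37.6 CPM against 20.1, 17.4 and 19.9 CPM and rose by 0.92 (adjusted p = 0.00452). For all 3 genes the lowest Pole4-/- library was above the highest Pole4+/+ library. Ulbp1, a stress-induced ligand of the NKG2D receptor, measured 2.70, 3.34 and 2.95 CPM against 6.89, 9.46 and 8.66 CPM and fell by 1.48 (SE 0.194, adjusted p = 0.00452). Parpbp, a PARP1-binding protein that restrains homologous recombination, measured 8.31, 6.76 and 7.63 CPM against 15.5, 14.9 and 13.0 CPM and fell by 0.93 (SE 0.124, adjusted p = 0.00452). Fam111a, a protease that acts at stalled forks, measured 33.9, 33.8 and 34.1 CPM against 56.8, 64.2 and 58.0 CPM and fell by 0.81 (SE 0.113, adjusted p = 0.00523). The Pole4-/- libraries were close to each other for Fam111a and below every Pole4+/+ library. The calls of these 6 genes and of BC055324 held in each of the 6 fits that omit 1 library. The other genes among the 10 lowest p were Cst3, a secreted cysteine protease inhibitor (0.84), Csgalnact1, which starts chondroitin sulfate chains (1.5), and Bub1b, of the spindle checkpoint (-0.90).

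In the replication lists most genes had negative log2 fold changes. The lists are given here in the order of fork assembly, which was not tested. Of 16 genes of origin licensing and the MCM helicase, 8 were called lower and 0 higher (2.7% of all genes were called lower), with a median log2 fold change of -0.86; without Pole4+/+ Trp53-/- replicate 1, 13 were called lower. Mcm6, a helicase subunit, measured 48.0, 53.5 and 55.8 CPM in Pole4-/- Trp53+/+ cells against 107.1, 111.7 and 78.8 CPM and fell by 0.92 (SE 0.197, adjusted p = 0.0244). Mcm10, which acts as the helicase is activated, measured 7.15, 7.35 and 6.02 CPM against 16.9, 16.8 and 13.5 CPM and fell by 1.19 (SE 0.235, adjusted p = 0.0203). The remaining called members were Mcm2, Mcm3, Mcm4, Mcm5, Mcm7 and the loader Cdc6, with falls of 0.80 to 1.19. The origin recognition subunits Orc3 (0.11), Orc4 (-0.12) and Orc5 (-0.21) were near 0 and were not called.

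Genes of CMG assembly and origin firing were called lower for 6 of 16 members (14 without Pole4+/+ Trp53-/- replicate 1), with a median of -0.66. Dbf4, the activating subunit of the CDC7 kinase, measured 32.0, 34.4 and 35.1 CPM against 59.5, 55.5 and 56.1 CPM and fell by 0.76 (SE 0.168, adjusted p = 0.0278), whereas Cdc7 itself had a log2 fold change of -0.45 (adjusted p = 0.10). Cdc45, Donson, Mtbp, Timeless and Wdhd1 were the other called members. Of 20 genes of polymerases alpha and delta, the sliding clamp and its loader, 9 were called lower (17 without that library). Pola1, the catalytic subunit of polymerase alpha, measured 18.4, 18.4 and 15.3 CPM against 35.3, 31.9 and 29.8 CPM and fell by 0.89 (SE 0.15, adjusted p = 0.0164). The primase subunit Prim1 fell by 0.95 and the clamp loader subunit Rfc5 by 0.87. Pcna, the clamp, had a log2 fold change of -0.77 and did not pass (adjusted p = 0.054), and Pold4, the smallest subunit of polymerase delta, lay above in all 3 libraries (0.69, adjusted p = 0.054).

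Enzymes of nucleotide supply followed, with 7 of 14 called lower (12 without Pole4+/+ Trp53-/- replicate 1) and a median of -0.67. The dUTPase Dut fell by 0.98, thymidine kinase Tk1 by 0.98 and thymidylate synthase Tyms by 0.69, while the ribonucleotide reductase subunits Rrm1 (-0.76, adjusted p = 0.080) and Rrm2 (-0.87, adjusted p = 0.14) were below in all 3 libraries and did not pass. Rrm2b, the TRP53-induced subunit, had a log2 fold change of 0.09.

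Of 12 histone chaperones and maintenance factors at the fork, 6 were called lower (10 without Pole4+/+ Trp53-/- replicate 1), with a median of -0.70. Asf1b, which passes H3-H4 dimers to CAF-1, measured 6.70, 7.595 and 8.43 CPM against 15.9, 17.7 and 13.9 CPM and fell by 1.08 (SE 0.21, adjusted p = 0.0203). The CAF-1 subunits Chaf1a and Chaf1b fell by 0.82 and 0.89, and Uhrf1, which recruits maintenance methylation to hemimethylated DNA, by 0.95. Clustered histone genes, whose transcripts are made in S phase and mostly lack a poly(A) tail, had the lowest median of the pathway lists, -1.14, with 25 of 43 called lower (35 without that library) and 0 higher. Hist1h2bj, an H2B gene, measured 20.2, 19.8 and 16.5 CPM against 58.0, 77.2 and 38.8 CPM and fell by 1.62 (SE 0.322, adjusted p = 0.0220). Hist1h4k, an H4 gene, measured 16.6, 11.0 and 13.4 CPM against 30.3, 43.3 and 27.4 CPM and fell by 1.29 (adjusted p = 0.0203). These genes are near-identical copies between which the expected counts divide shared reads, so the value of any single copy is uncertain; all but 2 of the 43 had a negative log2 fold change.

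Genes of double-strand break and fork repair were called lower for 9 of 27 members (17 without Pole4+/+ Trp53-/- replicate 1), with a median of -0.52. Fanci, of the Fanconi anemia pathway, measured 5.88, 4.92 and 4.15 CPM against 8.83, 9.46 and 9.14 CPM and fell by 0.85 (SE 0.13, adjusted p = 0.00952). Brca1 fell by 0.54 and Exo1 by 1.01, whereas Atm (-0.18), Rad50 (-0.08), Chek2 (0.10) and Trp53bp1 (0.15) were not called. Of the 13 genes of the ATR-CHK1 checkpoint, which senses stalled forks, 0 were called by edgeR, with 7 lower at an unadjusted p under 0.05 and 8 called lower without that library and 9 under scaling by library totals, at a median of -0.42. Chek1 measured 8.05, 7.595 and 7.90 CPM against 11.6, 13.5 and 12.04 CPM (-0.65, adjusted p = 0.056), and Atr had overlapping ranges (-0.17).

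Mitotic genes had the highest share of calls among the lists. Of 42 genes, 38 were called lower and 0 higher, against 2.7% and 1.29% of all genes. Without Pole4+/+ Trp53-/- replicate 1, 41 were called lower. In 41 of the 42, all 3 Pole4-/- libraries lay below all 3 Pole4+/+ libraries, against 21.7% of all genes. The median log2 fold change was -0.82. The median over members relative to the Pole4+/+ mean was -0.81, -0.79 and -0.78 in the Pole4-/- Trp53+/+ libraries and 0.14, 0.13 and -0.27 in the Pole4+/+ Trp53+/+ libraries, so that Pole4+/+ replicate 3 was the lowest of its genotype and still above all Pole4-/- libraries. Kif11, the kinesin that separates the spindle poles, measured 38.2, 38.2 and 37.3 CPM against 73.9, 69.7 and 58.3 CPM and fell by 0.83 (SE 0.153, adjusted p = 0.0203). Bub1b measured 26.6, 25.2 and 22.4 CPM against 49.2, 48.1 and 41.4 CPM and fell by 0.90 (SE 0.128, adjusted p = 0.00544). Ncapg, a condensin subunit, measured 24.3, 25.2 and 21.8 CPM against 45.4, 41.2 and 39.2 CPM and fell by 0.81 (SE 0.131, adjusted p = 0.0144). Mki67, the proliferation marker, fell by 0.84 and Ccnb1, the mitotic cyclin, by 0.89. With 1 of the 6 libraries left out, between 1 and 41 of the 42 genes were called lower and the median stayed between -0.92 and -0.75; with Xist as a covariate, or with the male libraries left out, 0 were called, at medians of -0.81 and -0.84. Fewer cycling cells and less RNA per cell cannot be told apart in these bulk libraries.

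Among 23 G1/S cyclins, kinases and E2F family genes, 3 were called lower (13%, against 2.7% of all genes) and 1 higher (4.35%, against 1.29%). The median was -0.36. Without Pole4+/+ Trp53-/- replicate 1, 13 were called lower and 3 higher. Cdk1, the mitotic kinase, measured 36.7, 39.5 and 38.0 CPM against 68.0, 77.4 and 58.1 CPM and fell by 0.83 (SE 0.199, adjusted p = 0.0343). Ccna2 (cyclin A2) measured 50.3, 52.7 and 53.0 CPM against 105.6, 104.4 and 76.5 CPM and fell by 0.88 (SE 0.211, adjusted p = 0.0347). The pocket protein genes moved apart: Rbl1 (p107) fell by 0.44 (adjusted p = 0.0486), and Rb1 was higher, at 33.4, 37.1 and 35.9 CPM against 21.6, 21.8 and 24.7 CPM, a rise of 0.64 (SE 0.125, adjusted p = 0.0203). Genes that act at entry into S phase did not pass in edgeR: Ccne1 (-0.32, adjusted p = 0.39), Ccne2 (-0.65, adjusted p = 0.13), Cdk2 (-0.45, adjusted p = 0.054) and E2f1, whose ranges overlapped at 21.5, 21.5 and 19.9 CPM against 20.2, 25.2 and 18.6 CPM (-0.02). Under 14 other settings of the fit Cdk2 was called in 8, Ccne2 in 5, Ccne1 in 1 and E2f1 in 0. Of 7 genes for cyclin-dependent kinase inhibitors, 0 were called by edgeR (2 higher at an unadjusted p under 0.05, with up to 3 called higher and 1 lower under the alternatives, and a median of -0.005 that ran from -0.31 to 0.51 over the fits). Cdkn2b, for P15, had a log2 fold change of 0.47 (adjusted p = 0.19) and Cdkn1b, for P27, of -0.04.

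**Figure D3:**
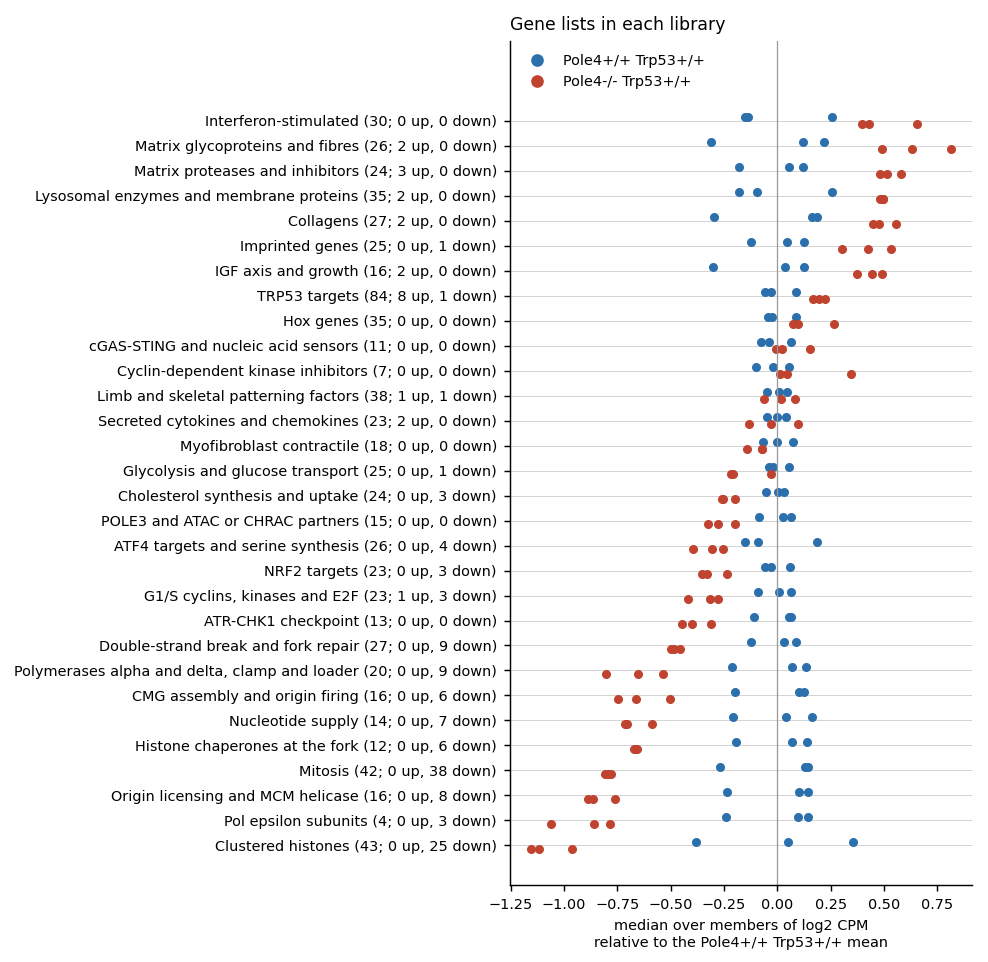
Median over the tested members of each gene list of log2 CPM relative to the Pole4+/+ Trp53+/+ mean (horizontal axis). Cell type marker lists are not drawn. There is 1 point for each Pole4+/+ (blue) and Pole4-/- (red) library. The label gives the number of members and how many were called up and down. Mitotic genes sat between -0.81 and -0.78 in the Pole4-/- libraries, and clustered histones were lowest of the lists drawn.

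E2F-type letters were frequent at licensing genes and CHR-type letters at mitotic genes, and the other replication lists varied. Shown here, as examples of a licensing gene, a cell cycle kinase and a pair of genes among those discussed above, are stretches of the same extent as before, with capitals for an E2F-type match or for the CHR-type match TTTGAA, on either strand; CHR elements are bound by the DREAM and MuvB complexes in cell cycle genes.
Mcm6 (chr1:128359676-128359855, minus strand): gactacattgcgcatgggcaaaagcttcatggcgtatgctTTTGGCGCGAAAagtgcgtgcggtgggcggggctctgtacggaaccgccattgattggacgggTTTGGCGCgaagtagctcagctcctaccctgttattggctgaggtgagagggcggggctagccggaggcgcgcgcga
Cdk1 (chr10:69352883-69353062, minus strand): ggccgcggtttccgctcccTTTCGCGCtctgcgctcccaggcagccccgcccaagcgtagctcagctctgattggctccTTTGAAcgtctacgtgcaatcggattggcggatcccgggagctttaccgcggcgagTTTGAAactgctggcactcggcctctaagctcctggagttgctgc
Kif11 (chr19:37376232-37376411, plus strand): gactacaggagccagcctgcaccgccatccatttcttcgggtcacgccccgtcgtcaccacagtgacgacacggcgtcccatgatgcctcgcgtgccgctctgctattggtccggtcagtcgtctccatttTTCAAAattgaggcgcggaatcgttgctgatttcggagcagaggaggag
Parpbp (chr10:88146912-88147091, minus strand): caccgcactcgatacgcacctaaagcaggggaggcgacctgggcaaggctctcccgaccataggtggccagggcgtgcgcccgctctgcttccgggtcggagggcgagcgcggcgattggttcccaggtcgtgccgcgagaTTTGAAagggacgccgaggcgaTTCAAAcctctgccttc
Mcm6 holds 3 E2F-type matches, of which the first pair, 110 and 106 bases before the start, share letters. Cdk1 holds 1 E2F-type match 131 bases before the start and CHR-type matches at 71 and 15 bases before it. Kif11 holds a CHR-type match 19 bases before the start, and Parpbp holds CHR-type matches 9 bases before and 13 bases after it. In the window of 300 bases, an E2F-type match was found in 8 of 14 licensing and MCM genes with a promoter in the table (57.1%) and a CHR-type match in 25 of 35 mitotic genes (71.4%). Genes of CMG assembly and firing held them in 3 and 4 of 10, and G1/S genes in 7 and 5 of 15. Nucleotide supply genes held them in 0 and 2 of 12, and Pol epsilon subunits in 2 and 0 of 3. Differences between lists were not tested. Over all tested genes with a promoter the shares were 4.14% and 11.7%. Genes called lower held an E2F-type match in 31 of 311 promoters (9.97%) and a CHR-type match in 86 (27.7%), and genes called higher in 2 of 147 (1.36%) and 15 (10.2%). Sorted the other way, 6.11% of 393 genes with an E2F-type match alone were called lower, 6.57% of 1203 genes with a CHR-type match alone, 14% of 50 genes with both and 2.22% of 9043 genes with neither. Most genes with a match were thus not called lower, and 201 of the 9043 genes with neither were. Sites that differ from these exact letters would be missed. The median log2 fold change of genes with a CHR-type match alone was -0.04. The CCAAT box, bound by NF-Y, was in 38.9% of all, 53.4% of called lower and 34.7% of called higher promoters.

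TRP53 target genes lay slightly above 0 in the median in Pole4-/- Trp53+/+ cells, and the number called depended on the fit. Trp53 itself (chr11:69580359-69591873) measured 64.2, 70.5 and 72.7 CPM against 89.7, 96.1 and 86.6 CPM, below in every Pole4-/- library, and did not pass the test (-0.40, SE 0.108, adjusted p = 0.052). Cdkn1a measured 342.4, 361.3 and 362.6 CPM against 242.8, 231.6 and 251.3 CPM. The ranges did not overlap, and the log2 fold change of 0.56 (SE 0.207) did not pass the test (adjusted p = 0.115). Under 14 other settings of the fit Trp53 was called in 7 and Cdkn1a in 2. Neither was called in a fit that omits 1 of the 6 libraries. Of 84 TRP53 target genes, 8 were called higher and 1 lower (1.29% of all genes were called higher), with a median of 0.19, and 38 were above in all 3 libraries against 19.4% of all genes. The count of targets called higher was 23 without Pole4+/+ Trp53-/- replicate 1, 17 with ribosomal RNA share as a covariate, 36 under voom and 0 to 7 with 1 of the 6 libraries left out. Under scaling by library totals the median of the 84 turned to -0.12, against -0.28 for all genes.

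The called targets did not include Cdkn1a or Mdm2. Igfbp3, an IGF-binding protein, measured 32.0, 35.3 and 23.8 CPM against 9.01, 4.08 and 10.3 CPM and rose by 1.97 (SE 0.504, adjusted p = 0.0455). Perp, a desmosomal and apoptotic membrane protein, measured 11.0, 17.9 and 13.9 CPM against 6.26, 3.00 and 4.81 CPM and rose by 1.59 (SE 0.41, adjusted p = 0.0426). Cd80, a T cell costimulatory ligand, measured 21.1, 18.4 and 19.01 CPM against 10.4, 7.03 and 9.37 CPM and rose by 1.13 (adjusted p = 0.0341). In each of these 3 genes the Pole4-/- libraries were all above the Pole4+/+ libraries. Ano3, a scramblase-family membrane protein, rose by 1.13, Cgref1, a growth regulator, by 0.77, the repair nuclease gene Ercc5 by 0.57, Exoc4, of the exocyst, by 0.49 and the translesion polymerase gene Polk by 0.36, while Polh, for another translesion polymerase, fell by 0.63. Mdm2, the ubiquitin ligase of TRP53, measured 149.5, 149.9 and 159.1 CPM against 123.5, 132.2 and 147.3 CPM (0.19, adjusted p = 0.28). Ccng1 (0.23), Zmat3 (0.27), Eda2r (0.37) and Trp53inp1 (0.84, SE 0.519) did not pass either. Under 14 other settings of the fit Zmat3 was called in 5, Trp53inp1 in 2, Mdm2 and Eda2r in 1 each and Ccng1 in 0. The log2 fold changes of Mdm2, Ccng1 and Zmat3 were -0.13, -0.10 and -0.04 under scaling by library totals.

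The genes called higher had matrix, secreted and lysosomal proteins among them. The 3 genes with the largest rises among those with at least 1 CPM were Elobl (3.22), Pamr1, a secreted peptidase-domain protein (3.07), and Mmp13 (3.06). Mmp13, a collagenase, measured 11.2, 9.26 and 13.1 CPM in Pole4-/- Trp53+/+ cells against 1.48, 0.569 and 1.96 CPM (SE 0.598, adjusted p = 0.0203). Pamr1 measured 11.8, 14.4 and 14.1 CPM against 2.21, 0.879 and 1.6 CPM (SE 0.529, adjusted p = 0.0165). Every Pole4-/- library was well above every Pole4+/+ library in both genes. Of 24 matrix proteases and inhibitors, 3 were called higher (12.5%, against 1.29% of all genes), Mmp13, Adamts4 (1.16) and Adamts12 (0.57), with a median of 0.54. The count was 13 without Pole4+/+ Trp53-/- replicate 1 and 7 with the replicate block.

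Of 27 collagen genes, 2 were called higher (7.41%, against 1.29% of all genes) and 0 lower, with a median of 0.47. The count called higher was 9 without Pole4+/+ Trp53-/- replicate 1, 8 with the replicate block, 10 with ribosomal RNA share as a covariate and 15 under voom. Col14a1, a fibril-associated collagen, measured 57.3, 52.3 and 60.9 CPM against 18.3, 10.03 and 22.6 CPM and rose by 1.74 (SE 0.381, adjusted p = 0.0278). Col8a1, a short-chain collagen, rose by 0.60. Col10a1, described above, and Col28a1 (2.32, adjusted p = 0.0165), named after its values were seen, were called higher too and are not among the 27. The main fibrillar collagen Col1a1 lay above in all 3 libraries by 0.34 and did not pass (adjusted p = 0.25). Of 26 matrix glycoproteins and fibre proteins, 2 were called higher (7.69%, against 1.29% of all genes), at a median of 0.59. For 19 of them all 3 Pole4-/- libraries lay above, against 19.4% of all genes. The count called higher was 11 without Pole4+/+ Trp53-/- replicate 1, 6 with the replicate block and 14 under voom. Eln, the elastin gene, measured 190.4, 233.7 and 152.6 CPM against 59.6, 29.5 and 69.6 CPM and rose by 1.86 (SE 0.468, adjusted p = 0.0433). Fn1, for fibronectin, rose by 0.70 (adjusted p = 0.0401). Pole4+/+ replicate 2 was the lowest library for Eln, Col14a1 and Fn1. Genes of the contractile apparatus, by contrast, had a median of -0.09, with 0 of 18 called by edgeR (2 higher and 1 lower at an unadjusted p under 0.05; 3 lower without that library), and Acta2 had overlapping ranges (-0.11). Markers of cartilage, of which collagens and matrix proteins are also products, had a median of 0.77 with 0 of 10 called by edgeR (3 higher at an unadjusted p under 0.05, and 3 called higher without Pole4+/+ Trp53-/- replicate 1), at sums of 399.7 to 712.8 CPM in Pole4-/- and 314.7 to 652.9 CPM in Pole4+/+ cells. Neuronal and glial markers had a median of 0.61 (0 of 9 called, 3 higher and 1 lower at an unadjusted p under 0.05) and skeletal muscle markers of 0.52 (0 of 12 called, 1 higher and 1 lower), with overlapping sums of 82.7 to 100.2 against 69.5 to 88.8 CPM and 147.5 to 160.9 against 122 to 157.4 CPM. These medians moved with the fit: that of cartilage markers was 0.06 over genes with a mean of at least 50 counts, that of neuronal and glial markers 0.14 without Pole4-/- replicate 2, and that of skeletal muscle markers 0.03 with the male libraries left out. The part of these cell types in the matrix values was not tested.

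In the IGF axis, which drives embryonic growth, 2 of 16 genes were called higher (12.5%, against 1.29% of all genes), both of them binding proteins. Without Pole4+/+ Trp53-/- replicate 1, 5 were called higher. Igfbp2 measured 492.3, 551.9 and 490.0 CPM against 214.3, 87.6 and 137.0 CPM and rose by 1.80 (SE 0.328, adjusted p = 0.0203), with Igfbp3 as above. The ligands Igf1 (1.09, adjusted p = 0.15) and Igf2 (0.34, adjusted p = 0.49) did not pass. Cxcl14, a chemokine, measured 39.2, 46.7 and 28.1 CPM against 14.5, 9.41 and 11.7 CPM and rose by 1.68 (SE 0.294, adjusted p = 0.0185), and Tnfrsf11b, the decoy receptor osteoprotegerin, by 0.52. These were the 2 called genes of 23 secreted cytokines and chemokines, a list whose median was -0.07.

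Lysosomal genes were mostly higher in level, with log2 fold changes of -1.01 to 1.62, and few passed the test. Of 35 genes, 2 were called higher, 30 were higher at an unadjusted p under 0.05, 27 lay above in all 3 libraries (19.4% of all genes did) and the median was 0.47. Hexa, a subunit of beta-hexosaminidase, measured 108.2, 117.8 and 117.3 CPM against 70.5, 71.8 and 86.0 CPM and rose by 0.59 (SE 0.116, adjusted p = 0.0203). Ctsf, for cathepsin F, rose by 1.62 (SE 0.427, adjusted p = 0.0462). The median over the list relative to the Pole4+/+ mean was 0.48, 0.50 and 0.50 in the Pole4-/- libraries and -0.09, -0.18 and 0.26 in the Pole4+/+ libraries. Pole4+/+ replicate 3, the lowest of its genotype in mitotic genes, was the highest in lysosomal genes. Without Pole4+/+ Trp53-/- replicate 1 in the fit, 25 of the 35 were called higher, and 33 under voom.

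Biosynthetic and stress pathways held 1 to 4 genes called lower each, and 2.7% of all genes were called lower. Of 26 ATF4 targets and serine synthesis genes, 4 were called lower (15.4%): Shmt2 (-0.75) and Psat1 (-0.71) of serine and one-carbon metabolism, Phgdh (-0.60), the first enzyme of serine synthesis, and the amino acid transporter gene Slc7a5 (-0.63). Psat1 measured 174.4, 172.7 and 180.7 CPM against 326.3, 276.3 and 261.4 CPM (SE 0.159, adjusted p = 0.0279). Of 23 NRF2 targets, 3 were called lower (11 without Pole4+/+ Trp53-/- replicate 1), Srxn1 (-0.45), which repairs peroxiredoxins, and the pentose phosphate enzymes Taldo1 (-0.36) and Pgd (-0.35). Of 24 cholesterol genes, 3 were called lower (6 without that library), Insig1 (-0.40), Stard4 (-0.36) and Msmo1 (-0.34), and of 25 glycolysis genes 1, Eno1 (-0.62), a share near that of all genes (3 without that library). Among 38 limb and skeletal patterning factors Twist2 fell by 0.92, at 13.7, 11.9 and 12.9 CPM against 23.5, 25.8 and 23.4 CPM, and Tbx15 rose by 0.37. The Hox genes had a median of 0.10 and 0 of 35 called by edgeR (5 higher and 1 lower at an unadjusted p under 0.05; 3 higher without Pole4+/+ Trp53-/- replicate 1). Of 25 imprinted genes, 1 was called lower, the transporter gene Slc38a4 (-0.50), a share of 4%, near the 2.7% of all genes. Of the imprinted genes 0 were called higher by edgeR, against 8 without Pole4+/+ Trp53-/- replicate 1, 7 with ribosomal RNA share as a covariate and 13 under voom. The share of patterning genes was near that of all genes. Of 30 interferon-stimulated genes, 0 were called by edgeR, with 9 higher at an unadjusted p under 0.05 and a median of 0.60. Above in all 3 libraries were 12, against 19.4% of all genes. Without Pole4+/+ Trp53-/- replicate 1, 7 were called higher, and 14 under voom. The nucleic acid sensors had a median of 0.04 and 0 of 11 called by edgeR (2 higher and 1 lower at an unadjusted p under 0.05; voom called 3 higher and 1 lower, and edgeR without that library 2 higher), and Cgas was at -0.46 (adjusted p = 0.14).

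Fewer genes were called for the same loss of POLE4 in cells with reduced Trp53. In Trp53+/- cells 1 gene was called, Ulbp1, lower (0.00637% of the genes tested), at 5.13 ± 0.133 CPM against 12.6 ± 1.66 CPM (SD, n = 3). In Trp53-/- cells 1 gene was called, the transcription factor gene Tbx20, higher (0.00637%), at 8.56 ± 2.29 CPM against 2.14 ± 0.277 CPM. DESeq2 called 43 genes in Trp53+/- and 29 in Trp53-/- cells, and voom 246 and 1. Sex was placed differently in each background: 3 of 3 Pole4+/+ Trp53+/- libraries were male against 1 of 3 Pole4-/- Trp53+/-, and 0 of 3 Pole4+/+ Trp53-/- against 1 of 3 Pole4-/- Trp53-/-. Sex and Trp53 copy number therefore cannot be fully told apart in a comparison of backgrounds. These comparisons share no library with the one in Trp53+/+ cells. The 424 genes called lower in Trp53+/+ cells had a median log2 fold change of -0.22 in Trp53+/- cells, where 392 had the same sign, and of 0.12 in Trp53-/- cells, where 110 did. The 202 genes called higher had medians of 0.17 and -0.13, with 150 and 63 of the same sign. Mitotic genes had medians of -0.82, -0.26 and 0.23 with Trp53 present in 2, 1 and 0 copies, and licensing and MCM genes of -0.86, -0.20 and 0.15. Clustered histones had medians of -1.14, -0.36 and -0.12, and cholesterol genes of -0.23, -0.20 and -0.21. Without Pole4+/+ Trp53-/- replicate 1, the medians in Trp53-/- cells were 0.05 for mitotic genes, -0.10 for licensing and MCM genes, -0.39 for clustered histones and -0.09 for cholesterol genes, and those of the called genes were -0.03 (lower) and 0.05 (higher).

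The difference of the Pole4 effect between Trp53+/+ and Trp53-/- cells was tested directly. It passed for 52 genes (0.331% of those tested), of which 46 were among the 626, 27 called lower and 19 called higher in Trp53+/+ cells. In 51 of the 52 the effects had opposite signs, and in 48 without Pole4+/+ Trp53-/- replicate 1. Genes picked by the size of this difference tend to have opposite signs, so these counts do not show a reversed effect. Within Trp53-/- cells the lowest adjusted p of the 52 was 0.2998 (edgeR). Fam111a had a log2 fold change of -0.81 in Trp53+/+ and 0.24 in Trp53-/- cells, a difference of -1.06 (SE 0.157, adjusted p = 0.0313), and Parpbp of -0.93 and 0.20, a difference of -1.13 (SE 0.17, adjusted p = 0.0313). Cst3 differed in the other direction, with 0.84 and -0.28. Without Pole4+/+ Trp53-/- replicate 1 the difference passed for 170 genes, 48 of the 52 among them; all 52 differences became smaller. The count was 0 with Xist as a covariate. It was also 0 without Pole4-/- replicate 2 or 3 or Pole4+/+ replicate 1 or 2 of the Trp53+/+ cells, without Pole4-/- Trp53-/- replicate 1 or 3, and without Pole4+/+ Trp53+/- replicate 2; it was 1 without Pole4-/- Trp53-/- replicate 2, 11 without Pole4-/- Trp53+/+ replicate 1 or Pole4+/+ Trp53+/- replicate 1, and at most 3242 (without Pole4+/+ Trp53-/- replicate 3). The difference between Trp53+/+ and Trp53+/- cells passed for 0 genes by edgeR, with 1591 at an unadjusted p under 0.05, 29 called by DESeq2 and 47 by edgeR without that library. Pole and Pole2 differed between Trp53+/+ and Trp53-/- cells by -1.13 (adjusted p = 0.052) and -1.26 (adjusted p = 0.058).

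**Figure D4:**
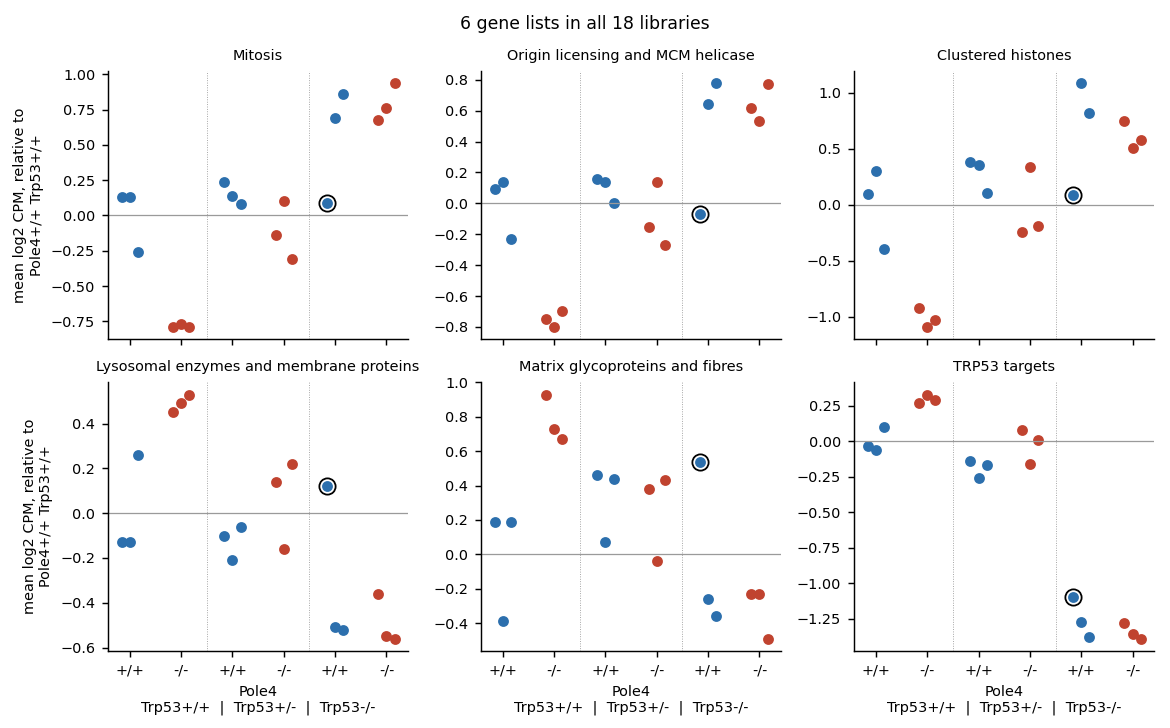
Mean log2 CPM over the members of 6 gene lists, relative to the Pole4+/+ Trp53+/+ mean (vertical axis), in each of the 18 libraries by genotype, with Pole4+/+ in blue, Pole4-/- in red and a ring around Pole4+/+ Trp53-/- replicate 1. For mitotic genes the Pole4-/- Trp53+/+ libraries, at -0.79 to -0.77, were below the other 15 libraries, and the ringed library, at 0.09, was below the other Trp53-/- libraries.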

How the data were processed

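Poly(A) RNA of 18 primary MEF libraries was reverse-transcribed, amplified (NuGEN Ovation) and sequenced as paired ends on a HiSeq 4000. The authors trimmed the reads, aligned them to GRCm38 (Ensembl release 89) with STAR 2.5.2 and deposited RSEM 1.3.0 expected counts per gene, of which 6.14% were not whole numbers; versions are from the submitters' processing notes. The labels and the methods name different RNA extraction kits. Whether counting used strand is not given in the sources used here. All 51912 gene IDs were looked up in GENCODE, and 51719 matched.

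Counts were rounded, filtered (filterByExpr, 15710 genes kept), scaled by TMM and tested with edgeR 4.0.16 (R 4.3.3) quasi-likelihood F-tests, robust, with 1 mean for each of the 6 genotypes over all 18 libraries (12 residual degrees of freedom). The study used DESeq2; its design is not given in the sources used here. P-values were adjusted by Benjamini-Hochberg over all genes tested, a gene was called at an adjusted p under 0.05, and the standard error is the log2 fold change divided by the square root of F. CPM are TMM-scaled. Depth was 11316143 to 32155250 counts in the 6 libraries compared. None of the 18 pairs of libraries within a genotype differed by as little as sampling noise (chi-square of 24.04 or more per degree of freedom), and the fit was tested on simulated data. Alternatives were DESeq2 1.42.0, limma 3.58.1 voom with quality weights, other scalings and filters, a replicate block, Xist or ribosomal RNA as a covariate, and each library left out (the 12 outside the comparison for counts over all genes, and Pole4+/+ Trp53-/- replicate 1 for every result); those on ribosomal RNA as a covariate, on the male libraries and on libraries outside the comparison were chosen after seeing the data.

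The comparison and the 39 gene lists were chosen with earlier results of these data known. Genes named are the Pol epsilon, TRP53, cell cycle and sex genes of a preset list, the 10 called genes of lowest p, the 8 with the largest rises and the 8 with the largest falls without overlap and with a mean of at least 1 CPM, up to 4 called members of each list, the 3 genes of lowest p in each tested difference, and called genes within 5 Mb of Pole4. Other members of the lists are named with their values as examples, chosen after the values were seen. Values of some list members are not reported here, although the list counts and medians include them. Promoters are from RefSeq (GRCm38.p6), 250 bases before to 50 after the start; 10689 tested genes matched, 3 of 4 Pol epsilon genes among them and 0 of 43 clustered histone genes.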

Additional observations from a re-analysis of the deposited data

Results flagged for a closer look

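The Pole4 effect differed between Trp53+/+ and Trp53-/- cells for 15 of the genes named by rule, by the direct test of the difference in edgeR (log2 fold change in Trp53+/+ minus that in Trp53-/-; 52 genes passed in all). The difference was negative for Pola1 (-1.16), Parpbp (-1.13), Ncapg (-1.07), Bub1b (-1.06), Fam111a (-1.06), Kif11 (-1.05), BC055324 (-1.05), Fanci (-0.99), Brca1 (-0.88) and Ulbp1 (-1.32). For 9 of these 10 genes the fall in Trp53+/+ cells stood against a log2 fold change between 0.11 and 0.33 in Trp53-/- cells. Without Pole4+/+ Trp53-/- replicate 1 those 9 lay between 0.017 and 0.237 in Trp53-/- cells. Ulbp1 was below 0 in both backgrounds (-1.48 and -0.17). The difference was positive for Cst3 (1.12), Csgalnact1 (1.93), Cxcl14 (2.05), Pamr1 (3.95) and Nkain4 (4.70), all of them higher in Trp53+/+ and below 0 in Trp53-/- cells. Nkain4, for a membrane protein that interacts with the sodium pump, measured 2.88, 6.18 and 2.81 CPM in Pole4-/- Trp53+/+ cells against 0.484, 0.517 and 0.831 CPM.

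Pole4+/+ Trp53-/- replicate 1 moves these values. Without it the difference was -0.93 for Fam111a (adjusted p = 0.00865), -1.03 for Parpbp (adjusted p = 0.0217), 0.93 for Cst3 (adjusted p = 0.0147) and 2.53 for Pamr1 (adjusted p = 0.0442). The log2 fold change of Pamr1 in Trp53-/- cells went from -0.88 to 0.53. Nkain4 (3.60) and Cxcl14 (1.7) no longer passed, both at an adjusted p of 0.0526. Over 11 alternatives the 15 genes were called in 4 to 6 of them. The library also held low levels of Y-linked genes, 1.03 to 2.76 CPM, in otherwise female cells; the part of mixing between libraries or embryos in its values was not tested.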

How the results depend on the processing

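The number of calls depended on the settings. Of 202 genes higher and 424 lower, DESeq2 gave 593 and 1025, voom with quality weights 2518 and 2711, a fit of only the 6 libraries compared 1519 and 1839, no filter on low counts 113 and 711, scaling by library totals alone 57 and 2187, Xist as a covariate 6 and 5, ribosomal RNA share as a covariate 825 and 1094, both male libraries left out 0 and 0, an adjusted p under 0.01 6 and 6, and a size limit of 1 on the log2 fold change 99 and 67. RLE scaling, upper-quartile scaling, ribosomal RNA genes left out before scaling and a mean of at least 50 counts stayed within 1.5 times. Leaving out 1 library gave 3 to 1256 higher and 5 to 1966 lower; the highest values are without Pole4+/+ Trp53-/- replicate 1, and without Pole4-/- replicates 1, 2 and 3 or Pole4+/+ replicates 1, 2 and 3 of the Trp53+/+ cells the counts were 51, 10, 7, 16, 3 and 199 higher and 89, 8, 5, 10, 5 and 600 lower. Of the other libraries, Pole4+/+ Trp53-/- replicate 3 (391 higher and 879 lower without it) and Pole4-/- Trp53-/- replicates 1 (129 and 253) and 2 (143 and 276) moved a count by over 1.5 times. Under library totals 623 of the 626 genes had the same sign. The cause of these changes was not tested.

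The difference between Trp53+/+ and Trp53-/- cells (52 genes) was called for 1791 genes by DESeq2, 1234 by voom and 0 with Xist as a covariate, and for 0 to 3242 with 1 library left out. The difference between Trp53+/+ and Trp53+/- cells (0 genes) was called for 29 by DESeq2 and 1022 by voom, and for 0 to 47 with 1 library left out. In Trp53+/- cells (1 gene) DESeq2 called 43, voom 246, Xist as a covariate 0, and 0 to 6 genes passed with 1 library left out; in Trp53-/- cells (1 gene) DESeq2 called 29, the replicate block 0, and 0 to 2 passed with 1 library left out. With the replicate number as a block, 374 genes were higher, 522 lower and 548 differed between Trp53+/+ and Trp53-/- cells. The deviations of same-numbered samples correlated at 0.087, 0.083 and 0.177. Pole4-/- samples numbered 1 and 3 correlated best with Pole4+/+ samples of their own number, and those numbered 2 with number 1. The labels do not say that a number marks a shared litter or batch, so the numbers were not used as pairs in the main fit.

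Of 110 genes named by rule, 92 were called. Under library totals Ccng1 (-0.101), Mdm2 (-0.126) and Zmat3 (-0.039) changed sign. E2f1, near 0, was positive under upper-quartile scaling (0.036), a mean of at least 50 counts (0.024), voom (0.02) and Xist as a covariate (0.002), and lay between -0.11 and 0.109 with 1 library left out. With the male libraries left out Ddx3y (-1.309), Eif2s3y (-3.198), Kdm5d (-0.883), Uty (-2.719) and Xist (0.49) changed sign. Depth limits the genes with few counts, since the shallowest of the 6 libraries held 11316143 counts, 42.5% of them ribosomal RNA.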

Other observations

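Imprinted genes, many of which act on embryonic growth, had a median log2 fold change of 0.39 over 25 members. Above in all 3 Pole4-/- Trp53+/+ libraries were 14, against 19.4% of all genes. The 1 called gene, Slc38a4, was lower (4% of the list, near the 2.7% of all genes). Mest, a paternally expressed growth gene, measured 236.2, 238.2 and 203.0 CPM in Pole4-/- cells against 61.7, 39.2 and 66.0 CPM in Pole4+/+ cells, and its log2 fold change of 2.02 did not pass the test (adjusted p = 0.086). Plagl1, a zinc finger factor of the imprinted network, measured 87.6, 116.4 and 113.0 CPM against 58.9, 49.0 and 64.3 CPM (0.88, adjusted p = 0.057), and the noncoding H19 measured 4606, 3489 and 4310 CPM against 2392, 1773 and 2774 CPM (0.84, adjusted p = 0.18). Cdkn1c, the imprinted kinase inhibitor gene, varied most within groups, at 26.3, 31.1 and 44.7 CPM against 18.6, 28.9 and 54.5 CPM (-0.01).

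Pole4+/+ Trp53+/+ replicate 2 was below the other 2 libraries of its genotype in collagens (-0.30 against 0.16 and 0.19), matrix glycoproteins (-0.31 against 0.12 and 0.22) and the IGF axis (-0.30 against 0.03 and 0.13), as medians of log2 CPM relative to the mean of the genotype. Tfap4, an E-box factor, had the lowest log2 fold change among the called genes named by rule (-1.62), at 2.13, 2.25 and 1.34 CPM against 7.17, 6.31 and 4.63 CPM. Lpl, the only called adipocyte marker, measured 8.73, 13.1 and 6.69 CPM against 2.99, 4.24 and 3.56 CPM (1.42), while 6 of 10 adipocyte markers were under 1 CPM in all 6 libraries.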
